A study of Mus musculus with 16 samples.

Results

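Cd28, Ctla4 and Icos are neighbouring genes of mouse chromosome 1 that encode receptors of the CD28 family. They were taken by name, 3 genes of the 23420 in the RNA count files and 3 gene intervals of the 22269 in the H3K27me3 ChIP files, and all 3 passed the filters on low counts in both. CD28 gives a T cell that has met its antigen the second signal it needs for growth and cytokine production, after binding CD80 or CD86 on another cell. CTLA-4 binds the same ligands more tightly and dampens the response, and regulatory T cells, whose defining factor is FOXP3, hold high levels of it. ICOS appears after activation, binds ICOS ligand and serves T cell help and effector functions. Ezh2 is the catalytic subunit of Polycomb repressive complex 2 and places 3 methyl groups on lysine 27 of histone H3 (H3K27me3), a mark known for silencing genes.

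All cells were mouse CD4+ T cells, sorted as naive cells and activated with plate-bound anti-CD3 (5 ug/ml) and soluble anti-CD28 (1 ug/ml), so every group received an antibody against the product of one of the 3 genes. The controls had the strain Ezh2 fl/fl (genotype given as wild type), whose floxed alleles are intact, and the Ezh2-deleted cells had the strain Ezh2 fl/fl.CD4Cre (genotype Ezh2-/-), in which the Cre is driven by Cd4 and acts in the T cell lineage before activation; no control carrying Cre without floxed Ezh2 was analysed here, and ages are not in the labels. Th0 cultures (activated without polarising cytokines) had rhIL-2 (50 U), and iTreg cultures (induced regulatory T cells) had rhIL-2 (200 U/ml) and rhTGF-b1 (5 ng/ml). The titles give day 4 for Th0 and day 5 for iTreg RNA, whereas the protocol gives harvest on day 4 for both, so culture and day may differ together. RNA came from 3 biological replicates in each of the 4 combinations, and H3K27me3 from 2 per genotype in Th0 cells only; libraries are called by the number in their title, with KO for deleted cells, and KO.165 and 177 each occur in both cultures.

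RNA libraries held 21910114 to 28443427 counted reads and ChIP libraries 11124172 to 15103496. Levels are counts per 1000000 reads of the library total (CPM), or reads per kb of gene length on the same scale (RPKM) where genes are compared with each other. Ezh2 RNA was 305 ± 8.57 CPM in Th0 controls and 157 ± 11.1 in Th0 deleted cells, and 219 ± 46.1 and 96.5 ± 41.5 in iTreg (SD, n = 3 each). The groups did not overlap in either culture; edgeR called the fall in iTreg (log2 -1.18, adjusted p = 0.0235) but not in Th0 with all libraries (-0.99, adjusted p = 0.0618), where it passed without the iTreg deleted library KO.165 (adjusted p = 0.00067). The fit without KO.165 called 3529 of 13025 genes in Th0, against 1536 of 12845 with all libraries. The iTreg call of Ezh2 was lost without iTreg control library 154 or 155 (adjusted p = 0.0781 and 0.0802) and with only the 6 iTreg libraries (-1.17, adjusted p = 0.203). These values checked the labels as far as a whole-gene count can, since reads from any retained exons are counted too. In a principal component analysis of the 12 RNA libraries, the iTreg deleted library KO.165 and the iTreg control library 177 stood apart from the other iTreg libraries (-109 and -98.2 on the first component, which held 46.5% of the variance, against -44.9 to 1.87). The same libraries had the lowest Ezh2 level of their groups, 48.7 CPM and 166 CPM. The 8 T cell markers were read in every group, at a summed 4202 to 4355 CPM in Th0 controls, 3436 to 3714 CPM in Th0 deleted cells, 3975 to 4031 CPM in iTreg controls and 3860 to 4488 CPM in iTreg deleted cells. Foxp3 marked the iTreg controls at 913 ± 64.7 CPM, against 20.9 ± 4.37 CPM in Th0 controls.

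The 3 genes lie on the plus strand in the order Cd28, Ctla4, Icos and span 283521 bases of the mm10 assembly. The deposited ChIP intervals run over chr1:60716800-60773359 for Cd28, chr1:60887000-60915832 for Ctla4 and chr1:60977927-61000320 for Icos. Gaps of 113640 bases and 62094 bases separate them, and no other counted interval overlaps any of the 3. They are whole gene bodies, exons, introns and untranslated regions together. RefSeq's gene starts differ from them: that of Ctla4 (60909025) lies 22025 bases inside its interval and that of Cd28 (60746388) 29588 bases inside, while Icos starts in RefSeq at 60960773, before its interval. Raph1, which encodes an actin regulator, is the nearest counted gene on the left, 149695 bases away, and 9530026F06Rik is the nearest on the right, at 378111 bases.

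Of the 3 genes, 1 (Ctla4) matched an entry among the RefSeq promoters (build GRCm38.p6, the patched form of mm10). Its 250 bases before the start, chr1:60908775-60909024 on the plus strand, are shown because Ctla4 is the member whose RNA moved most. The capitals mark its 7 CpG dinucleotides.

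Ctla4 promoter: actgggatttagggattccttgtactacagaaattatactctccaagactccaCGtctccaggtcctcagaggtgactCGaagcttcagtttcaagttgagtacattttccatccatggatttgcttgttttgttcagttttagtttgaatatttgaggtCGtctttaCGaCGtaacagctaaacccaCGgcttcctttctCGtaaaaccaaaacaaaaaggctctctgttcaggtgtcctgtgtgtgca

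CpG counts were as low or lower in 57.0% of the 32851 promoters, whose median was 6. The NFAT core GGAAA, searched on both strands as were all motifs, occurred 1 time, 144 bases before the start, and 55.6% of promoters hold it. The forkhead core AAACA occurred 2 times (46.4% of promoters hold it), and the longer forkhead motif GTAAACA, which contains that core, had no match (3.17% hold it). The AP-1 motif TGACTCA (4.46%) and TATAAA (7.59%) had no match either. These are matches of letters, and none says that a factor bound.

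In Th0 cells the loss of Ezh2 went with a near loss of Ctla4 RNA, while neither Cd28 nor Icos passed the test with all libraries. Ctla4 was 343, 276 and 271 CPM in the control libraries 173, 176 and 177. It was 13.7, 13.4 and 16.8 CPM in the deleted libraries KO.165, KO.174 and KO.175, from 354 to 477 reads each. The groups lie far apart, and no deleted library comes near a control. Ctla4 fell by 4.37 on the log2 scale (SE 0.421, edgeR quasi-likelihood test, adjusted p = 0.000248), which is 20.7-fold, from 297 ± 40.3 to 14.6 ± 1.86 CPM (SD, n = 3 each). Of 12845 genes tested, 12% were called in this comparison (8.74% higher and 3.22% lower), and 1 of the 3 genes was called. The median change of all genes was 0.

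Cd28, the activating receptor, was 299, 257 and 260.0 CPM in the Th0 controls. It was 151, 179 and 189 CPM in the Th0 deleted libraries. All 3 deleted libraries lay below all 3 controls. The change of -0.69 (SE 0.302, 1.61-fold) did not pass the test in the edgeR fit of all 12 libraries (adjusted p = 0.206). It passed with the same change when the iTreg deleted library KO.165 was left out of that fit (edgeR adjusted p = 0.0227), when the iTreg libraries KO.165 and 177 were left out (-0.69, adjusted p = 0.000724) and when only the 6 Th0 libraries were fitted (-0.68, adjusted p = 0.0015). In each of these the Th0 values are the same and the estimate of the spread is not. Of all genes, these fits called 3529 of 13025, 6697 of 12978 and 6397 of 12284 in that order, against 1536 of 12845 with all libraries. So a pass in them is not particular to Cd28.

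Icos, the inducible receptor, was 219, 196 and 202 CPM in the Th0 controls. In the deleted libraries it was 227 CPM in KO.165 but 111 and 119 CPM in KO.174 and KO.175. Library KO.165 was above every control and the other 2 below them all, so the groups overlap. The change of -0.47 (SE 0.474) did not pass (edgeR adjusted p = 0.678), nor did the -0.87 without the Th0 deleted library KO.165 (adjusted p = 0.449, and 0.311 to 0.922 over all libraries left out in turn). Library KO.165 also had the highest summed level of the 8 B cell markers, 451 CPM, against 198 and 221 CPM in the other 2 and 66.7 to 112 CPM in the controls.

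Markers of B cells, regulatory T cells and T cells moved with genotype in Th0. All 8 B cell markers were called higher in deleted Th0 cells, beside 8.74% of all genes, and none was at 0 in any group. The 6 Treg markers, Foxp3 among them, summed to 2761 to 2916 CPM in Th0 controls and to 677 to 1053 CPM in deleted cells, and 3 of the 6 were called lower, beside 3.22% of all genes. Of the 8 T cell markers 3 (Cd2, Cd4 and Cd5) were also called lower, and their summed level was lower in all 3 deleted libraries than in all 3 controls. The part of these shifts in the fall of Ctla4 was not tested. The NK and gamma-delta T markers summed to 2.25 to 2.68 CPM in Th0 controls and 6.19 to 7.45 CPM in deleted cells. These are bulk samples, in which fewer cells expressing a gene and less RNA per cell cannot be told apart.

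**Figure D1:**
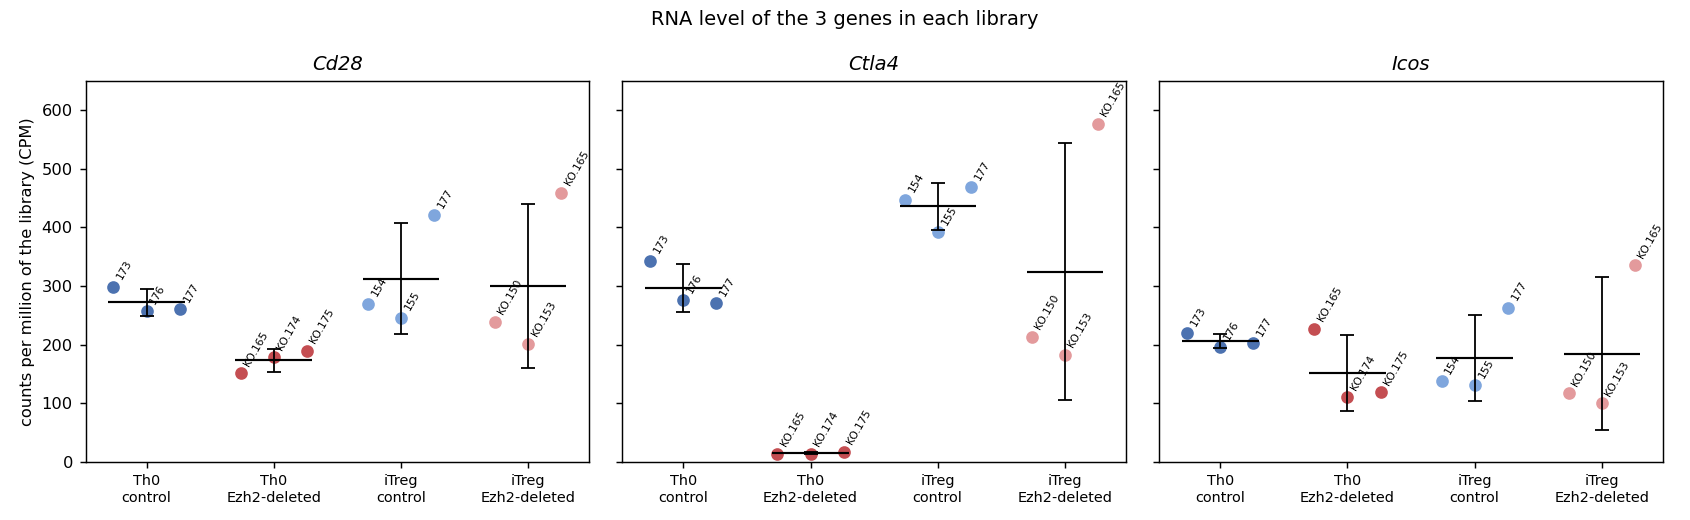
Level of Cd28, Ctla4 and Icos RNA (CPM, linear axis) in each of the 12 libraries, labelled by number, with the mean (line) and SD (bar) of each group of 3. Ctla4 sits at 13.4 to 16.8 CPM in the Th0 Ezh2-deleted libraries and at 182 CPM or more in all others, and the iTreg Ezh2-deleted library KO.165 is the highest point for all 3 genes.

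In iTreg cells the same deletion left Ctla4 RNA high. Ctla4 was 447, 391 and 469 CPM in the control libraries 154, 155 and 177. In the deleted libraries it was 214 CPM in KO.150, 182 CPM in KO.153 and 577 CPM in KO.165. Libraries KO.150 and KO.153 lay below every control and library KO.165 above them all. With all libraries the change was -0.42 (SE 0.366) and did not pass (edgeR adjusted p = 0.547). Without the iTreg deleted library KO.165 it was -1.13 (adjusted p = 0.000307), and without the iTreg libraries KO.165 and 177 together it was -1.08 (adjusted p = 0.000438). So library KO.165 decides whether a lower Ctla4 level is called in iTreg, and the fold in either case stays under that in Th0. Leaving it out raised the calls over all genes too. They were 5763 of 13025 without KO.165 and 7409 of 12978 without KO.165 and 177, against 2147 of 12845 with all libraries.

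Cd28 was 270, 246 and 421 CPM in the iTreg controls 154, 155 and 177. It was 239, 201 and 459 CPM in the deleted libraries KO.150, KO.153 and KO.165. Icos was 138, 131 and 263 CPM in the controls. It was 117, 100.3 and 335 CPM in the deleted libraries. Both genes were highest in library 177 of the controls and in library KO.165 of the deleted cells, the pair that stood apart across all genes, and the groups overlap. The changes of -0.05 (SE 0.3) for Cd28 and 0.06 (SE 0.473) for Icos did not pass (edgeR adjusted p = 0.947 and 0.96). Without library KO.165 they were -0.50 (adjusted p = 0.08) and -0.70 (adjusted p = 0.136). None of the 3 genes was called in iTreg with all libraries, beside 16.7% of all genes (9.45% higher and 7.26% lower).

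Other markers moved with genotype in iTreg too. Of the 6 Treg markers 5 were called lower and 0 higher (median change -1.44), beside 7.26% of all genes called lower. The CD8 T cell markers (Cd8a and Cd8b1) summed to 18.0 to 26.7 CPM in the iTreg controls and to 39.6 CPM in KO.165, 132 CPM in KO.153 and 138 CPM in KO.150, and 1 of 2 was called higher. The NK and gamma-delta T markers summed to 3.3 to 11 CPM in the controls and to 14.2, 38.2 and 41.8 CPM in KO.165, KO.153 and KO.150. Both that passed the filter were called higher, and Ncr1 was at 0 in both iTreg groups. Beside the markers called higher in iTreg, 9.45% of all genes were called higher. The B cell markers summed to 25.2 to 27.7 CPM in the controls and 19.1 to 60.9 CPM in deleted cells, with 4 of 8 called lower, and of the 8 T cell markers 2 were called higher and 3 lower. KO.165, the highest library for Cd28, Ctla4 and Icos, was the lowest deleted library for the CD8, NK and B cell sums, and the part of these shifts in the iTreg results was not tested.

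The difference between the cultures was itself tested. For Ctla4 the interaction was 3.95 on the log2 scale (SE 0.537, edgeR adjusted p = 0.00403), so the deletion lowered it 15.5-fold more in Th0 than in iTreg, and 4.49% of all genes were called. It was called in all 19 alternatives, at 3.24 without the iTreg deleted library KO.165 and up to 4.23 with another library left out. For Cd28 (0.63, SE 0.425, adjusted p = 0.6) and Icos (0.53, SE 0.669, adjusted p = 0.872) the edgeR interaction did not pass. The 95% interval (normal, from the SE) ran from -0.20 to 1.47 for Cd28 and from -0.78 to 1.85 for Icos, so a difference of up to that size is not excluded.

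The comparison of the cultures within a genotype uses the same libraries again and is given beside the above. In deleted cells Ctla4 was 21.7-fold higher in iTreg than in Th0 (log2 4.44, SE 0.423, edgeR adjusted p = 0.000282). In control cells it was 436 ± 40.0 CPM in iTreg and 297 ± 40.3 CPM in Th0, and the change of 0.49 (SE 0.366) did not pass with all libraries (edgeR adjusted p = 0.304). That change passed without the iTreg deleted library KO.165 (adjusted p = 0.00769) and with only the 6 control libraries (0.44, adjusted p = 0.0274), and the 3 iTreg controls lie above the 3 Th0 controls. Cd28 and Icos changed by 0.13 and -0.29 in control cells (edgeR adjusted p = 0.741 and 0.644) and by 0.76 and 0.25 in deleted cells (adjusted p = 0.0829 and 0.693). Cd28 in deleted cells passed without the iTreg deleted library KO.153 (0.98, adjusted p = 0.0344). Of all genes, 31.4% were called between cultures in control cells and 25.4% in deleted cells. In control cells, 8195 of 13025 genes were called without KO.165 and 6500 of 12179 with only the 6 control libraries, against 4027 of 12845 with all. In deleted cells, 4316 of 13103 were called without KO.153.

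**Figure D2:**
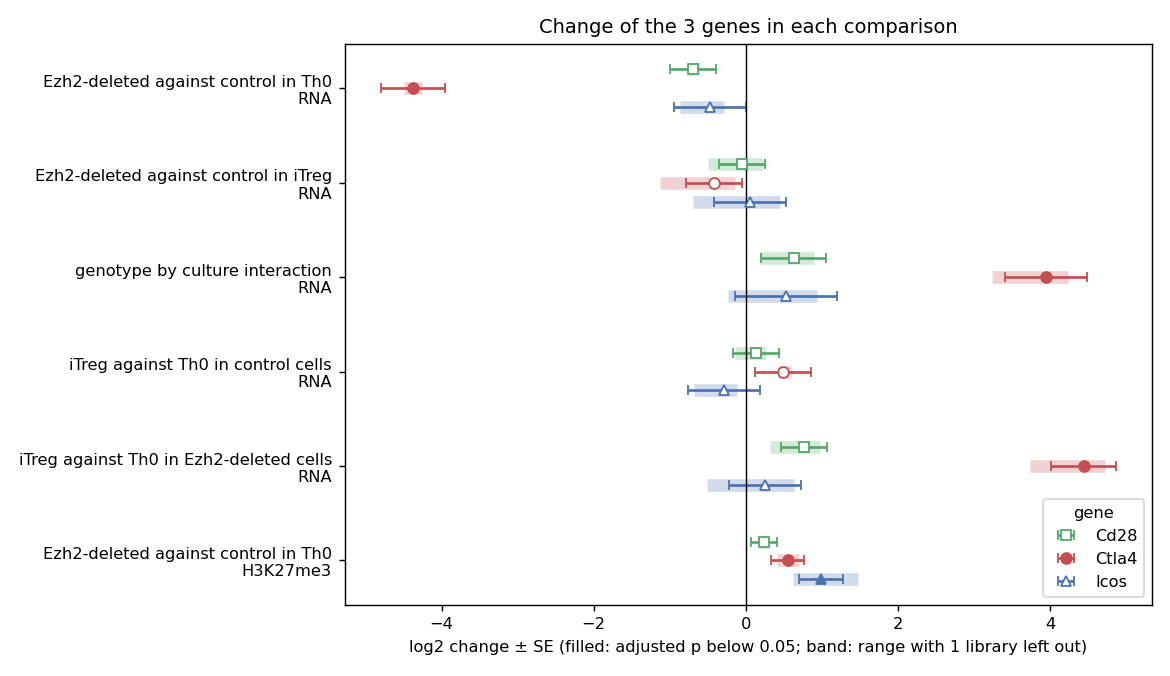
Log2 change of Cd28, Ctla4 and Icos in the 5 RNA comparisons and in H3K27me3 (points, bars 1 SE), with the range obtained when 1 library is left out (pale band); filled points have an edgeR adjusted p below 0.05. Ctla4 is called in Th0, in the interaction and between cultures in deleted cells, and its iTreg band reaches -1.13.

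Per length, the order of the genes differed between the groups. In Th0 controls Ctla4 led at 154 ± 20.9 RPKM (SD, n = 3), above 96.8% of the tested genes, with Icos at 63.2 ± 3.73 and Cd28 at 63.0 ± 5.43 RPKM, which do not differ beyond their spread. In Th0 deleted cells Ctla4 was last at 7.58 ± 0.962 RPKM, at the 50.0th percentile, below Icos (46.7 ± 20.0) and Cd28 (40.1 ± 4.61), which again do not differ beyond their spread. In iTreg controls Ctla4 was at 226 ± 20.7 RPKM, Cd28 at 72.4 ± 22 and Icos at 54.4 ± 22.8. In iTreg deleted cells the order was the same, at 168 ± 114, 69.5 ± 32.3 and 56.6 ± 40.2 RPKM. The SDs between libraries overlap, but the order held within each iTreg deleted library.

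A ratio of reads within a library does not depend on how libraries are scaled. Ctla4 reads per Cd28 read were 1.15, 1.07 and 1.04 in Th0 controls and 0.0907, 0.0753 and 0.0886 in Th0 deleted cells. In iTreg they were 1.66, 1.59 and 1.11 in controls and 0.893, 0.907 and 1.26 in deleted cells, where library KO.165 lies above the control library 177. Library KO.165 had more Ctla4 in CPM than any control, yet its Ctla4 to Cd28 ratio was within the range of the controls. The Th0 groups did not overlap and the mean log2 ratio differed by -3.68, with a p of 0.1 in an exact two-sided permutation test. That is the smallest p that 3 against 3 allows, and 0.267 after adjustment over the 8 ratio tests, so the test could not reach the threshold. In iTreg the difference was -0.51 (exact permutation p = 0.2).

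Icos reads per Cd28 read were 0.733, 0.762 and 0.778 in Th0 controls and 1.51, 0.618 and 0.628 in Th0 deleted cells. Here library KO.165 alone lies above the controls and the other 2 below them. In iTreg the ratios were 0.511, 0.532 and 0.623 in controls and 0.491, 0.499 and 0.730 in deleted cells. The mean log2 difference between genotypes was 0.14 in Th0 and 0.02 in iTreg (exact permutation p = 1 for both). Between the control cultures the ratio was lower in every iTreg library than in every Th0 library (-0.45, exact permutation p = 0.1).

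**Figure D3:**
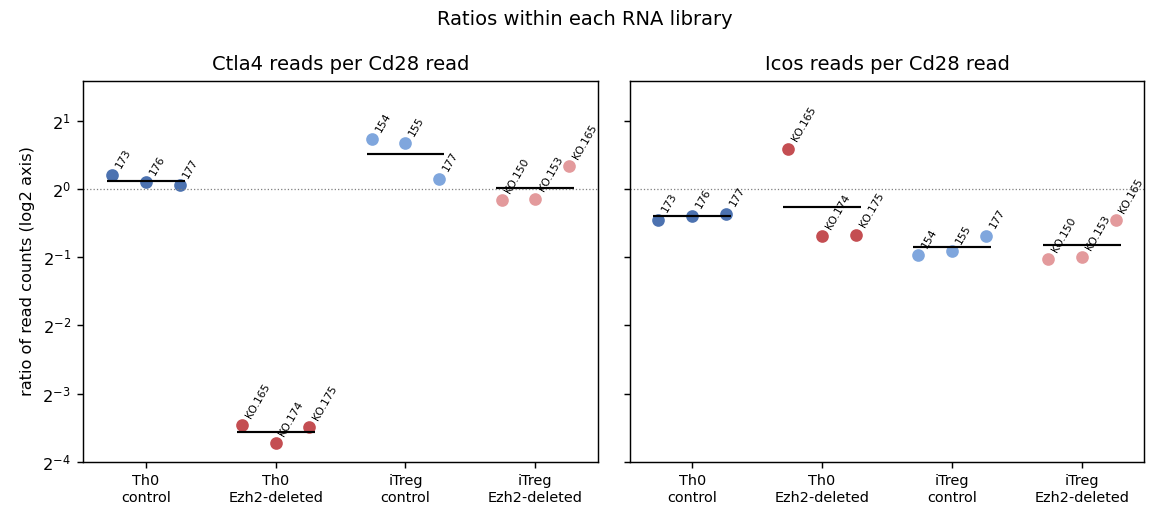
Ctla4 and Icos reads per Cd28 read in each library (log2 axis, points labelled by library, line at the geometric mean of 3). The Th0 Ezh2-deleted libraries hold 0.0753 to 0.0907 Ctla4 reads per Cd28 read, against 0.893 to 1.66 in the others, and Th0 library KO.165 stands out in the Icos ratio at 1.51.

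H3K27me3 was measured in Th0 cells only. Density is CPM per kb of interval, and reads spread evenly over all intervals would give 0.995. In the control libraries 33 and 7, Cd28 had 0.919 and 0.840, Ctla4 0.795 and 0.653 and Icos 0.630 and 0.348. All of these lie below an even spread, and the mean of Ctla4 was at the 41.4th percentile of all tested intervals, that of Cd28 at the 48.0th and that of Icos at the 26.6th. In the deleted libraries 10 and 9, Cd28 had 1.01 and 1.07, Ctla4 1.06 and 1.06 and Icos 0.946 and 0.987. Both deleted libraries lay above both controls for each gene. The same held for the nearest gene intervals on the left, Cyp20a1, Abi2 and Raph1, so it is not particular to these genes. The share of all intervals that separate in this way was not counted.

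Scaled to the library total, the share of reads was higher in deleted cells for Ctla4 (log2 0.55, SE 0.215, edgeR adjusted p = 0.0477) and Icos (0.99, SE 0.288, adjusted p = 0.0139), and for Cd28 the change of 0.24 (SE 0.174) did not pass (adjusted p = 0.267). Beside these, 52.9% of 20376 intervals were called (32.2% higher and 20.6% lower) and the median change was 0.21, so Cd28 moved like the median interval. With TMM scaling the median was -0.02, and Ctla4 (0.32, adjusted p = 0.222) no longer passed; 61.0% of the calls were higher with scaling to the library total and 46.5% with TMM. Ctla4 also did not pass without control library 7 (0.41, adjusted p = 0.0719). Without either deleted library no interval passed (edgeR, with 7223 and 7401 intervals at an unadjusted p under 0.05; 8696 passed in DESeq2 with all 4 libraries), Ctla4 was at 0.55 (adjusted p = 0.239 and 0.238) and Icos at 1.01 and 0.95 (adjusted p = 0.166 and 0.184).

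A share is not an amount. The interquartile range of density was 0.534 to 1.4 and 0.409 to 1.48 in the control libraries and 0.873 to 1.13 and 0.803 to 1.14 in the deleted ones, so intervals on both sides moved towards an even spread. Neither an input nor a spike-in was part of the files used, so a higher share of a smaller total and more mark per cell cannot be told apart. In Th0, Ctla4 RNA fell, and Cd28 and Icos RNA did not pass the genotype test with all libraries, at genes whose density in controls was below an even spread.

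The intervals around the 3 genes differed on the 2 sides. On the left, Cyp20a1, Abi2 and Raph1 had control densities of 0.740, 0.750 and 0.886 and deleted densities of 1.03, 0.974 and 1.01, and none passed the test (edgeR adjusted p from 0.0538 to 0.34). On the right, 9530026F06Rik fell from 2.23 to 1.12 (log2 -1.0, adjusted p = 0.00303), Pard3b from 1.32 to 1.05 (-0.33, adjusted p = 0.00893) and Nrp2, which encodes a semaphorin receptor, from 1.94 to 0.986 (-0.98, adjusted p = 0.000188). These calls of edgeR were lost without either deleted library (adjusted p from 0.0565 to 0.109), and that of Pard3b also without either control library (0.129 and 0.1). In RNA, 9530026F06Rik had no read in 12 libraries, and Pard3b and Nrp2 were at 0.417 and 1.24 CPM in Th0 controls and passed neither genotype test. Raph1 was 25.9 ± 1.37 CPM in Th0 controls and rose to 45.0 ± 3.62 CPM in deleted cells (log2 0.76, edgeR adjusted p = 0.00334), where Ctla4 fell. Cyp20a1 and Abi2 passed no genotype test (adjusted p = 0.897 and 0.598 in Th0).

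**Figure D4:**
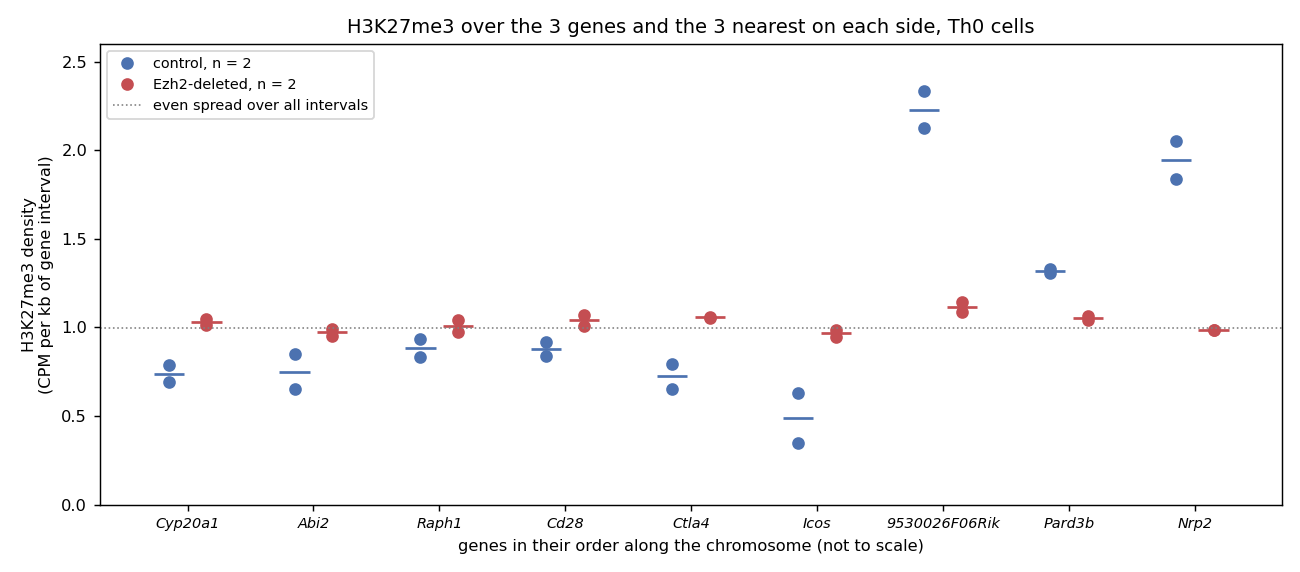
H3K27me3 density (CPM per kb) in Th0 cells over Cd28, Ctla4, Icos and the 3 gene intervals nearest on each side, in chromosomal order and not to scale, with each of the 2 libraries per genotype (points) and their mean (line). The 3 genes and their left neighbours sit below the even spread of 0.995 in controls, the right neighbours above it, and all 9 lie near it in deleted cells.

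Foxp3, the factor that defines regulatory T cells and is known to act on Ctla4, was followed beside it. It was 15.9, 23.9 and 23.0 CPM in Th0 controls and 2.43, 3.16 and 6.15 CPM in Th0 deleted cells. In iTreg it was 849.5, 911.5 and 979 CPM in controls and 90.9, 82.5 and 65.2 CPM in deleted cells. It fell by 2.45 in Th0 (SE 0.321, edgeR adjusted p = 0.00113) and by 3.52 in iTreg (SE 0.327, adjusted p = 0.000133), with no overlap in either culture, and the interaction of -1.07 did not pass (adjusted p = 0.247). The iTreg deleted library KO.165, the highest of all for Ctla4, was the lowest of the iTreg libraries for Foxp3. It was also the lowest for the summed Treg markers (715 CPM, against 1550 and 1570 CPM in deleted libraries KO.153 and KO.150 and 3632 to 5468 CPM in controls). Il2ra is the largest part of these sums (256 to 1294 CPM in iTreg deleted cells), so they do not stand for each marker. Ikzf2 (15.1 to 220 CPM there) went the other way and was highest in KO.165. The remaining Treg markers are not given by library here.

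The other receptors of the family are inhibitory. Btla, which binds the TNF receptor family member HVEM, was 90.6 ± 6.39 and 22.6 ± 8.40 CPM in Th0 control and deleted cells and 52.5 ± 5.14 and 13.5 ± 4.2 CPM in iTreg (SD, n = 3 each). It fell in both cultures (log2 -2.03 and -1.95, edgeR adjusted p = 0.002 and 0.00156) and its interaction of 0.08 did not pass (adjusted p = 0.991), whereas that of Ctla4 did. Pdcd1, which encodes PD-1, was at 8.69 and 11.7 CPM in Th0 and 12.9 and 6.31 CPM in iTreg. It did not pass with all libraries (edgeR adjusted p = 0.706 and 0.144). Pdcd1 passed as lower in iTreg without the deleted library KO.165 (-0.61, edgeR adjusted p = 0.027) and without the iTreg libraries KO.165 and 177 (-0.69, adjusted p = 0.00458). In Th0 it passed as higher with only the 6 Th0 libraries (0.40, adjusted p = 0.021) and without the iTreg libraries KO.165 and 177 (0.39, adjusted p = 0.0348). Of all genes, the fits in which Pdcd1 passed called 5763 of 13025 and 7409 of 12978 in iTreg, and 6397 of 12284 and 6697 of 12978 in Th0. Of the 5 family receptors, which include Cd28, Ctla4 and Icos, 2 were called lower in Th0 (Ctla4 and Btla), beside 3.22% of all genes. In iTreg 1 was called lower (Btla), beside 7.26%. The median changes of the 5, -0.69 in Th0 and -0.42 in iTreg, are those of Cd28 and Ctla4 themselves. So these counts and medians partly repeat the results above, and of the other 2 receptors only Btla was called with all libraries. The median over all genes was 0 and 0.01.

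Ligands of these receptors can also be read in T cells. Of 6, 1 was called lower in Th0, and 1 higher and 1 lower in iTreg (median changes -0.01 and -0.39), beside 12% and 16.7% of all genes called. Cd86, a ligand that CD28 and CTLA-4 share, was 12.9 ± 2.09 and 5.51 ± 0.575 CPM in Th0 controls and deleted cells (log2 -1.26, edgeR adjusted p = 0.0412), a call lost when any 1 of 9 libraries was left out (adjusted p up to 0.148). Cd80, the other shared ligand, fell in iTreg from 16.8 ± 2.43 to 7.34 ± 2.09 CPM (-1.19, edgeR adjusted p = 0.0183), a call lost without the iTreg control library 154 (adjusted p = 0.0649) and with only the 6 iTreg libraries (-1.18, adjusted p = 0.0822). Cd274, which encodes the PD-1 ligand PD-L1, rose in iTreg from 16.5 ± 2.48 to 51.0 ± 26.8 CPM (1.63, edgeR adjusted p = 0.00436), a call lost with only the 6 iTreg libraries (1.64, adjusted p = 0.0863). Icosl, the ligand of ICOS, was 10.3 ± 0.690 and 23.7 ± 3.89 CPM in Th0 and did not pass with all libraries (1.17, edgeR adjusted p = 0.415), but did with only the 6 Th0 libraries (1.17, adjusted p = 1.55e-05). That 6-library fit called 6397 of 12284 genes.

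CTLA-4 protein is kept in vesicles and carried to the surface, and 8 genes of that route were read. In Th0, 1 was called lower and none higher, and in iTreg 2 lower and 2 higher (medians -0.12 and -0.01), beside 12% and 16.7% of all genes called. Trat1, whose product TRIM helps bring CTLA-4 to the cell surface, fell from 18.7 ± 0.0338 to 1.85 ± 0.639 CPM in Th0 (log2 -3.37, edgeR adjusted p = 0.000646) and from 76.8 ± 2.93 to 8.61 ± 5.39 CPM in iTreg (-3.15, adjusted p = 0.000507). Its interaction of 0.22 did not pass (edgeR adjusted p = 0.961). Ap1m1, an adaptor subunit of vesicle transport, fell in iTreg (-0.38, edgeR adjusted p = 0.0109), a call lost with only the 6 iTreg libraries (-0.38, adjusted p = 0.217). Lrba, whose product protects CTLA-4 from degradation, and Rab8a, a small GTPase of vesicle transport, were called higher in iTreg (0.55 and 0.36, adjusted p = 0.0447 and 0.0208). The call of Lrba was lost when any 1 of 10 libraries was left out (edgeR adjusted p up to 0.139). That of Rab8a was lost without iTreg deleted library KO.150 or KO.153 or iTreg control library 155 or 177 (adjusted p up to 0.0922). With only the 6 iTreg libraries neither passed (edgeR adjusted p = 0.282 and 0.242).

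Of 9 transcription factors linked to the 3 genes, 1 was called higher and 1 lower in Th0, and 1 higher and 3 lower in iTreg (medians 0.06 and -0.02), where 8.74% and 3.22% of all genes were called higher and lower in Th0 and 9.45% and 7.26% in iTreg. Maf, a factor known for its part in ICOS-bearing helper cells, rose in Th0 from 2.5 ± 0.257 to 46.9 ± 9.71 CPM (log2 4.19, edgeR adjusted p = 0.00117) and was at 158 ± 127 and 154 ± 61.0 CPM in iTreg. Nfatc2, an NFAT factor of the calcium pathway, was 151 ± 12.3 and 162 ± 7.27 CPM in Th0 and fell in iTreg from 212 ± 18.0 to 106 ± 10.9 CPM (-1.0, edgeR adjusted p = 0.000389). In iTreg Tbx21, which encodes the Th1 factor T-bet, rose from 4.44 ± 1.27 to 12.8 ± 5.02 CPM (1.53, edgeR adjusted p = 0.00681), a call lost with only the 6 iTreg libraries (1.54, adjusted p = 0.113). Gata3, the Th2 factor, fell there (-1.17, adjusted p = 0.0252), a call lost without iTreg deleted library KO.150 or KO.153 or control library 177 (edgeR adjusted p up to 0.0813) and with only the 6 iTreg libraries (-1.16, adjusted p = 0.12). All 3 genes for decay of Icos RNA (Rc3h1, Rc3h2 and Zc3h12a, which encode Roquin proteins and Regnase-1) passed neither genotype test.

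Of 16 genes of proximal signalling downstream of CD28, 1 was called lower in Th0, beside 3.22% of all genes, and the median changes were -0.07 in Th0 and -0.09 in iTreg. Bcl10, an adaptor towards NF-kB, was the one in Th0 (log2 -0.32, edgeR adjusted p = 0.0244), a call lost without Th0 control library 173, 176 or 177 or Th0 deleted library KO.165 or KO.175 (adjusted p up to 0.111). Of 10 genes known to be induced through CD28, 9 passed the filter (Il2 did not), and their median changes were -0.29 in Th0 and -0.1 in iTreg. In Th0, 2 were called lower, Il2ra and Tnfrsf4 (-1.88 and -2.01, edgeR adjusted p = 0.0441 and 0.049), and 1 in iTreg, again Il2ra (-1.79, adjusted p = 0.0417), beside 3.22% and 7.26% of all genes called lower. Il2ra encodes the high-affinity chain of the IL-2 receptor and was 2577 ± 81.6 and 719 ± 177 CPM in Th0. Each of these 3 calls was lost when any 1 of 9 or 10 libraries was left out (adjusted p up to 0.163, 0.175 and 0.126), and that of Il2ra in iTreg also with only the 6 iTreg libraries (edgeR adjusted p = 0.247). Tnfrsf9 went the other way in Th0, from 13.5 ± 1.91 to 99.3 ± 4.91 CPM, without passing (2.84, edgeR adjusted p = 0.0785). Cd40lg went from 38.3 ± 1.25 to 10.8 ± 2.61 CPM and did not pass either (-1.85, edgeR adjusted p = 0.059).

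The genes whose profile was most like that of each member were found by Pearson's r of log2 CPM over the 12 libraries among 11832 tested genes. This describes these libraries, which share cultures and 2 libraries that stand apart. For Ctla4 they were Ppt1 (r = 0.97), Nxpe3 (0.97), Arhgap15 (0.964), Naglu (0.964) and Abcg1 (0.961), and r was 0.956 to 0.986 without the iTreg libraries KO.165 and 177. For Cd28 they were Fas (0.98), Ccr7 (0.975), Zc3hav1 (0.966), Sp100 (0.965) and Il7r (0.965), with r from 0.91 to 0.969 without those libraries. For Icos, Slain1, Slamf6, Jtb, Gpr174 and Pex26 reached 0.882 to 0.900, and 0.777 to 0.830 without them. None of the 3 genes was among the other members' nearest 5: r was 0.81 between Cd28 and Ctla4, 0.651 between Cd28 and Icos and 0.347 between Ctla4 and Icos, and 0.88, 0.282 and 0.125 over the 10 libraries without that pair.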

How the data were processed

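Reads were trimmed with Trimmomatic 0.30, aligned to mm10 with TopHat2 2.0.6 (RNA) or Bowtie2 2.1.0 (ChIP) and counted with featureCounts 1.4.2, per the submitters' processing notes; counting options are not given in the sources used here. The deposited values of both kinds are raw read counts, per gene or per whole gene interval, and all are whole numbers. Counts are reads without molecular identifiers, so precision is that of counting only within a library. RNA was tested with edgeR 4.0.16 (R 4.3.3): TMM, filterByExpr with a minimum count of 10, a robust quasi-likelihood F test of 12 libraries in 1 fit of 4 groups, two-sided, Benjamini-Hochberg adjustment over all 12845 genes, threshold 0.05. ChIP counts were tested likewise in 4 libraries, scaled by library total. SE is the log2 change divided by the root of F. Ratios used a pseudocount of 0.5 in tests. Alternatives were DESeq2 1.42.0, limma-voom 3.58.1 with and without a replicate block, other scalings, no filter, and leaving out libraries. The fits were tested on simulated data. Trdc was not found among the marker genes.

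The members and gene lists were chosen with earlier results of these data known. Genes were named by rule: the 3 members, Ezh2, Foxp3, the 3 nearest intervals on each side, the 5 most alike per member (predicted genes, Rik clones and antigen receptor segments left out), and up to 4 per list with the smallest p; 1 gene of the proximal signalling list is not reported here. Of the 8 myeloid and dendritic markers 3 passed the filter, and their list summed to at most 25.4 CPM.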

Additional observations from a re-analysis of the deposited data

Results flagged for a closer look

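For 5 of the genes named here the effect of the deletion differed between Th0 and iTreg cells by the test of the difference itself (edgeR interaction, iTreg minus Th0). That test called 4.49% of all 12845 genes. Many genes named here were picked for a small p in the genotype comparisons of the same libraries, so the count of 5 cannot be weighed against that share. Ctla4 had the value 3.95 (adjusted p = 0.00403), with a fall in Th0 and no call in iTreg. Maf had -4.21 (adjusted p = 0.0106), with a rise in Th0 and no call in iTreg, and Nfatc2 had -1.06 (adjusted p = 0.00655), with a fall in iTreg and no call in Th0. These 3 passed in each of the 19 alternatives run. Raph1 had -0.81 (adjusted p = 0.0277), a call lost when any 1 of 9 libraries was left out (adjusted p up to 0.0894). Rab8a had 0.65 (adjusted p = 0.0194), a call lost when any 1 of 7 libraries was left out (adjusted p up to 0.0685).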

How the results depend on the processing

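For Cd28, Ctla4 and Icos, the fall of Ctla4 in Th0, its interaction and its culture difference in deleted cells kept their call in every alternative. Without the iTreg libraries KO.165 and 177, Cd28 in Th0 (-0.69), Ctla4 in iTreg (-1.08), Ctla4 between control cultures (0.44) and Cd28 between deleted cultures (0.32) came to pass, and Icos in iTreg (-0.31), Cd28 between control cultures (-0.14) and Icos between deleted cultures (-0.51) changed sign without passing. With only the 6 libraries compared, Cd28 in Th0 (-0.68) and Ctla4 between control cultures (0.44) passed, and in DESeq2 Cd28 between deleted cultures (0.75) passed. In limma-voom Icos in iTreg was -0.08 with and without the replicate block. The H3K27me3 call of Ctla4 was lost with TMM (0.32) and DESeq2 (0.36).

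With 1 library left out, the log2 change ranged as follows. Genotype in Th0 gave -0.76 to -0.60 for Cd28. Genotype in iTreg gave -0.50 to 0.22 for Cd28, -1.13 to -0.14 for Ctla4 and -0.70 to 0.45 for Icos. The interaction ran from 0.19 (without the iTreg library KO.165) to 0.90 for Cd28 and from -0.23 to 0.93 for Icos. Between control cultures Cd28 ran from -0.14 to 0.27, Ctla4 from 0.42 to 0.60 and Icos from -0.68 (without the iTreg library 177) to -0.11. Between deleted cultures Cd28 ran from 0.32 to 0.98 and Icos from -0.51 to 0.63. H3K27me3 ran from 0.41 to 0.70 for Ctla4 and 0.62 to 1.47 for Icos. The log2 Icos to Cd28 ratio between genotypes ran from -0.28 to 0.36 in Th0 and -0.16 to 0.12 in iTreg. Where a sign or call changed, the cause was not tested. Where 1 H3K27me3 library of a genotype remained, it was assumed to vary like the other genotype.

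The number of genes called moved by more than 1.5 times: 1536 in Th0 (799 to 6697 over the alternatives), 2147 in iTreg (539 to 7409), 577 for the interaction (271 to 5347), 4027 and 3262 between control and deleted cultures (2004 to 8673 and 596 to 7481), and 10775 intervals (0 to 12648). The highest RNA counts came without the iTreg libraries KO.165 and 177.

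Title numbers are shared by 1 library per culture (KO.165 in deleted, 177 in control cells) and did not deviate together (r = 0.0445 and -0.00307 over genes), so they were not used as pairs. The replicate block changed no call of Cd28, Ctla4 or Icos in RNA, and gave 1441 calls in Th0 against 1440 without it in limma-voom.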
